A study of Rattus norvegicus with 8 samples.

Results

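The miRNAs numbered miR-3540 to miR-3599 are a block of rat microRNAs with late registry numbers. They were followed in cardiomyocytes, the contracting cells of the heart, that had been isolated from rats at postnatal day 10 (P10) and at postnatal day 0 (P0). RNA extracted with the mirVana kit was dephosphorylated and denatured, given the dye Cy3, and hybridised to 4 one-colour Agilent rat miRNA arrays per age, from animals labelled male or female. The younger age is P0 in the sample labels but day 1 in the title and design of the series. No genotype or treatment is named for either age, and separate animals or cultures are not stated for the replicates. The p-values thus cover the spread among these arrays alone, and that spread may be technical. Of the 677 rat miRNAs on the array, 78 carry names from miR-3540 to miR-3599. The 10 of them with a probe on chromosome 6 (rat build rn4) within 300 kb of the miR-134 probe, which lie in an imprinted miRNA cluster, were left out, and the other 68, with 142 of 1644 probes, are described. The farthest one left out, miR-3544, lay 238811 bases from the miR-134 probe, and the nearest one kept on that chromosome, miR-3545-5p, lay 2516448 bases away. The rule used names and positions only, not signal, but it was set with earlier results of these data known.

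A miRNA is cut from an RNA hairpin by the enzymes Drosha and Dicer, and one strand of about the length printed here is loaded into an Argonaute protein. It then pairs with messenger RNAs mainly through its seed, bases 2 to 8 from the 5′ end, and lowers their translation and stability. Registry numbers were given in order of submission, so miRNAs with low numbers are mostly abundant and shared among vertebrates, while later ones came largely from deep sequencing. A hairpin can also be read from the opposite DNA strand, which gives a second, antisense hairpin at the same place.

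Of the 68 miRNAs, 7 were detected on at least 1 array. Their mature sequences, from RefSeq on the GRCr8 build, are shown because all values below turn on them, with the seed in capitals.
rno-miR-3560: cAAAUCCUugcccgggugcauu
rno-miR-3562: uUGGGGCAguggcuggauggga
rno-miR-3564: uGGGAAAUgcaaagagggaag
rno-miR-3573-3p: uUCCUAACucugcccccucccau
rno-miR-3584-5p: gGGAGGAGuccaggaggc
rno-miR-3588: uCACAAGUuagggucucaggga
rno-miR-3593-3p: cUUCAACCuuaagggggccuca
No seed was shared among these 7, nor with any other rat mature sequence in RefSeq. RefSeq held a mature sequence for 63 of the 68 miRNAs, 9 of them under a later name, such as miR-31b for miR-3554, miR-191b for miR-3555, miR-133c for miR-3582, and miR-126b for miR-3567. Among the 63, only miR-3573-5p, with the seed of miR-423-5p, and miR-3596d, with that of miR-98-3p and of let-7a-1-3p, let-7b-3p, let-7c-2-3p and let-7f-1-3p, shared a seed with another rat miRNA, and neither was detected.

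The block was not one kind of miRNA. In 32 of the 63 sequences, a stretch of 16 to 22 bases was the reverse complement of another rat mature miRNA, and in 21 of the 32 it ran along the whole length. For 26 of the 32, RefSeq places the hairpin opposite that of the partner. The partners are among the best known miRNAs of muscle and other tissues. The following pairs show each late-numbered miRNA with its seed in capitals, and below it the partner, with the stretch that pairs with it in capitals.
rno-miR-3588: uCACAAGUuagggucucaggga
rno-miR-125b-5p: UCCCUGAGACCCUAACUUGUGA
rno-miR-3560: cAAAUCCUugcccgggugcauu
rno-miR-501-3p: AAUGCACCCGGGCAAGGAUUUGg
rno-miR-3571: uACACACUucuuuacauuccaua
rno-miR-1-3p: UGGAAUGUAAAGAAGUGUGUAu
rno-miR-3582: cAGCUGGUugaaggggaccaa
rno-miR-133a-3p: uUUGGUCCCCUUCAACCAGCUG
rno-miR-3574: uCAGCCGCugucacacgcacag
rno-miR-210-3p: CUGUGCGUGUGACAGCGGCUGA
rno-miR-3556a: cGAUUUCAgauggugcua
rno-miR-29a-3p: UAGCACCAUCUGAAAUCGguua
rno-miR-3596a: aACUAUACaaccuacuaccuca
rno-let-7a-5p: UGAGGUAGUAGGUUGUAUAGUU
rno-miR-3557-5p: gCCUUCUGacuccaaguccagu
rno-miR-378a-3p: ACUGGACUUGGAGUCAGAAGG
rno-miR-3546: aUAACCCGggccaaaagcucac
rno-miR-208a-5p: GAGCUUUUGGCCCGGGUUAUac
Among the partners, miR-1 and miR-133a are the main muscle miRNAs, miR-208a lies in the gene of the alpha myosin heavy chain Myh6, miR-210 is induced by low oxygen, miR-29a represses collagen genes and miR-378a lies in Ppargc1b, a coactivator of mitochondrial genes. The other 31 sequences had no such stretch of 12 or more bases and no opposite hairpin.

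The 7 detected miRNAs came from separate places in the GRCr8 genome. The gene table used gives spans without strand or exons, so exonic or intronic position was not analysed here. miR-3560 lies at chrX:17927239-17927260 (minus strand), within the span of Clcn5, which encodes a chloride and proton exchanger. miR-3562 lies at chr10:105848002-105848023 (minus), within Cep131, a centrosome and cilium gene. miR-3564 lies at chr19:66782276-66782296 (plus), within Klhdc4. miR-3573-3p lies at chrX:68299322-68299344 (plus), within Efnb1, the gene of the Eph receptor ligand ephrin-B1. miR-3584-5p lies at chr1:256727582-256727599 (minus), within Itprip and a long non-coding RNA, LOC120100050. miR-3588 lies at chr11:29732588-29732609 (minus), within the long non-coding RNA LOC103693508, and miR-3593-3p lies at chr6:78987770-78987791 (minus), within no listed gene. By the rn4 positions in the files, the X chromosome held 13 of the 68 miRNAs and chromosome 10 held 7.

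The arrays differed in brightness. The signal to which each was scaled, the 75th percentile of the 111 probes detected on all 8 arrays, was 652, 580, 1276 and 1269 intensity units for P10 replicates 1 to 4 and 116, 1326, 806 and 1160 units for P0 replicates 1 to 4. P0 replicate 1 was dim, with 73 miRNAs detected, against 157 to 187 on the other arrays. Among the P10 arrays, replicates matched closely in pairs, with a correlation across the 158 tested miRNAs of 0.998 between replicates 1 and 2 and 0.997 between replicates 3 and 4, against 0.89 to 0.898 between the pairs. All 8 arrays sat on 1 slide, with P10 in row 2 and P0 in row 1, so slide row and age cannot be told apart. Of 7 muscle miRNAs, 3 (miR-1, miR-133a and miR-133b) were detected on all 8 arrays. Of 26 markers of other cell types, 14 were detected on at least 1 array, none of the 6 epithelial ones among them. Among the 10 of these markers tested by limma, endothelial miR-126 (log2 difference P10 minus P0 of 2.17) and leukocyte miR-146a (1.85) rose and smooth muscle miR-143 (-0.92) fell at P10. The other 7 did not pass, although fibroblast miR-199a-3p (2.57), miR-199a-5p (2.23) and miR-214 (2.17) had differences as large, and leukocyte miR-223 (-0.24) had the opposite sign to miR-146a. Muscle miR-208 also rose (1.14, limma adjusted p = 0.0285). These marker calls treat the P10 arrays as separate samples, and with the P10 pairs averaged none of the 158 tested miRNAs passed in limma. miR-126, miR-146a and miR-208 were detected on 3, 1 and 1 P0 arrays. They were tested only because they were detected on all 4 P10 arrays. The part of these markers in the results below was not tested.

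Most of the late-numbered miRNAs gave no signal above background at either age. Detection on an array required that, for any probe of the miRNA, 0.5 or more of the unflagged spots be well above background by the scanner software's flag. By that rule 7 of 68 (10.3%) were detected on at least 1 array, against 98 of 144 older miRNAs of families conserved among vertebrates (68.1%) and 197 of all 609 other miRNAs (32.3%). Detection on all 8 arrays held for 2 of the 68 (2.94%), miR-3573-3p and miR-3593-3p, and for 50 of the 144 (34.7%). By array, 6, 6, 7 and 7 of the 68 were detected on P10 replicates 1 to 4, and 2, 5, 6 and 5 on P0 replicates 1 to 4. The lowest number was on the dim P0 array, where the older conserved miRNAs also fell to 50 detected, against 80 to 91 on the other arrays. The number detected averaged 6.5 ± 0.577 at P10 and 4.5 ± 1.73 at P0 (SD, n = 4 each), and P0 averaged 5.33 without replicate 1.

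**Figure D1:**
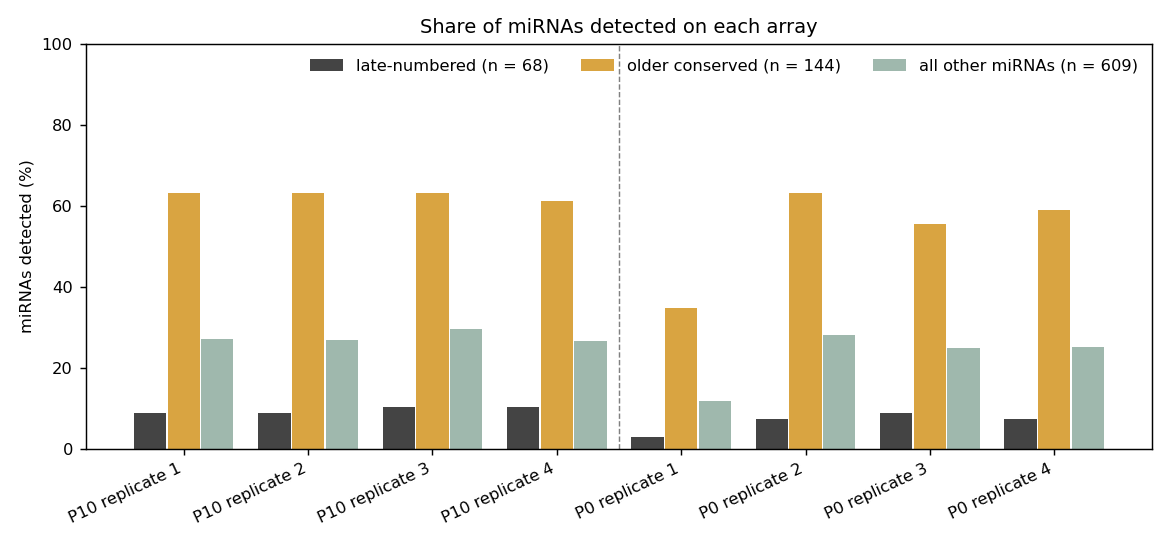
Share of miRNAs detected on each array (percent), for the 68 late-numbered miRNAs, 144 older conserved miRNAs and all 609 other miRNAs, with the P10 arrays left of the P0 arrays. The late-numbered share lies between 2.94% and 10.3%, below the other sets on every array, and all sets are lowest on P0 replicate 1.

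Of the 61 miRNAs detected on no array, all but miR-3549 had a mean signal under the upper range of the negative control spots. The mean signal over 8 arrays of their brightest probe ran from -6.46 to 9.69 intensity units, with a median of -3.65, and 60 of the 61 lay under 7.80 units, the mean over arrays of the 95th percentile of the negative control spots. None of the 3332 negative control spots was flagged well above background, and the brightest stood at 12.2 units. The 5th percentile of these spots ran from -1.415 to 1.267 units over the arrays, so the median of -3.65 lay below it. The 5 undetected miRNAs with the highest mean signal were miR-3549 (9.69 units), miR-3584-3p (3.48), miR-3547 (3.44), miR-3568 (3.34) and miR-3541 (3.05). miR-3549, which pairs with miR-193a-5p, had 12.2, 10.9, 11.5 and 9.80 units on P10 replicates 1 to 4, against 9.21, 7.26, 10.0 and 6.55 on P0 replicates 1 to 4. The P10 arrays gave the higher values except that P10 replicate 4 lay below P0 replicate 3, so the ages overlapped. On P10 replicates 1 to 3 its signal was above the brightest negative control spot of the same array, which stood at 11.4, 10.3 and 11.3 units, yet under 0.5 of its spots carried the flag. In the authors' deposited table, which holds 67 of the 68 miRNAs, miR-3549 was listed above the not-detected value of 0.1 on 3 P10 arrays and 1 P0 array, and it was the only one listed so there that was not detected here.

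Among the 32 reverse-complement pairs, of which 26 have opposite hairpins in RefSeq, the late-numbered miRNA was rarely seen even where its partner was. The other 6, for which RefSeq lists no opposite hairpin, are miR-3557-3p, miR-3557-5p, miR-3567, miR-3570, miR-3588 and miR-3589. The partner was detected on at least 1 array in 19 pairs and on all 8 arrays in 12. In 11 of those 12 the late-numbered miRNA was detected on none. That share is near the share in the whole block, where 61 of 68 were detected on none, so it is not particular to the pairs. These 11 were miR-3556a (partner miR-29a), miR-3557-5p (miR-378), miR-3571 (miR-1), miR-3574 (miR-210), miR-3582 (miR-133a), miR-3587 (miR-29b), miR-3590-5p (miR-130a) and miR-3596a to miR-3596d (let-7a, let-7d, let-7e and let-7f). Of the 15 pairs with a tested partner, 4 partners changed with age: miR-29a (log2 difference P10 minus P0 of 2.25 ± 0.53, SE, limma adjusted p = 0.0404) and miR-31 (3.59 ± 0.78, adjusted p = 0.0285) rose at P10, and miR-210 (-2.09 ± 0.34, adjusted p = 0.00797) and miR-378 (-0.91 ± 0.23, adjusted p = 0.0434) fell. For miR-31, detected on 4 P10 and 2 P0 arrays, the scaled P0 values were -5.89, -5.89, -5.89 and -5.87, against a floor of -5.89. Its difference and SE thus rest in part on the floor and are not a measured fold. For all 4, P10 replicates 1 and 2 lay farther from the P0 values than replicates 3 and 4 did. The scaled P10 values of miR-29a, for example, were 1.58, 1.61, -0.40 and -0.32. All 4 calls treat the P10 arrays as separate samples. With the P10 pairs averaged none of the 158 tested miRNAs (0%) passed in limma, 26 having an unadjusted p under 0.05. The late-numbered partners of miR-29a, miR-31, miR-210 and miR-378 were detected at neither age. In that order they are miR-3556a, miR-3554, miR-3574 and miR-3557-5p. In a further 12 pairs neither miRNA was detected, among them miR-3591 with the liver miRNA miR-122, miR-3548 with miR-200a*, miR-3597-3p with miR-9 and miR-3567 with miR-126*. The undetected miR-3546, miR-3554, miR-3555, miR-3556b, miR-3557-3p, miR-3565 and miR-3570 faced a partner seen on only some arrays.

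**Figure D2:**
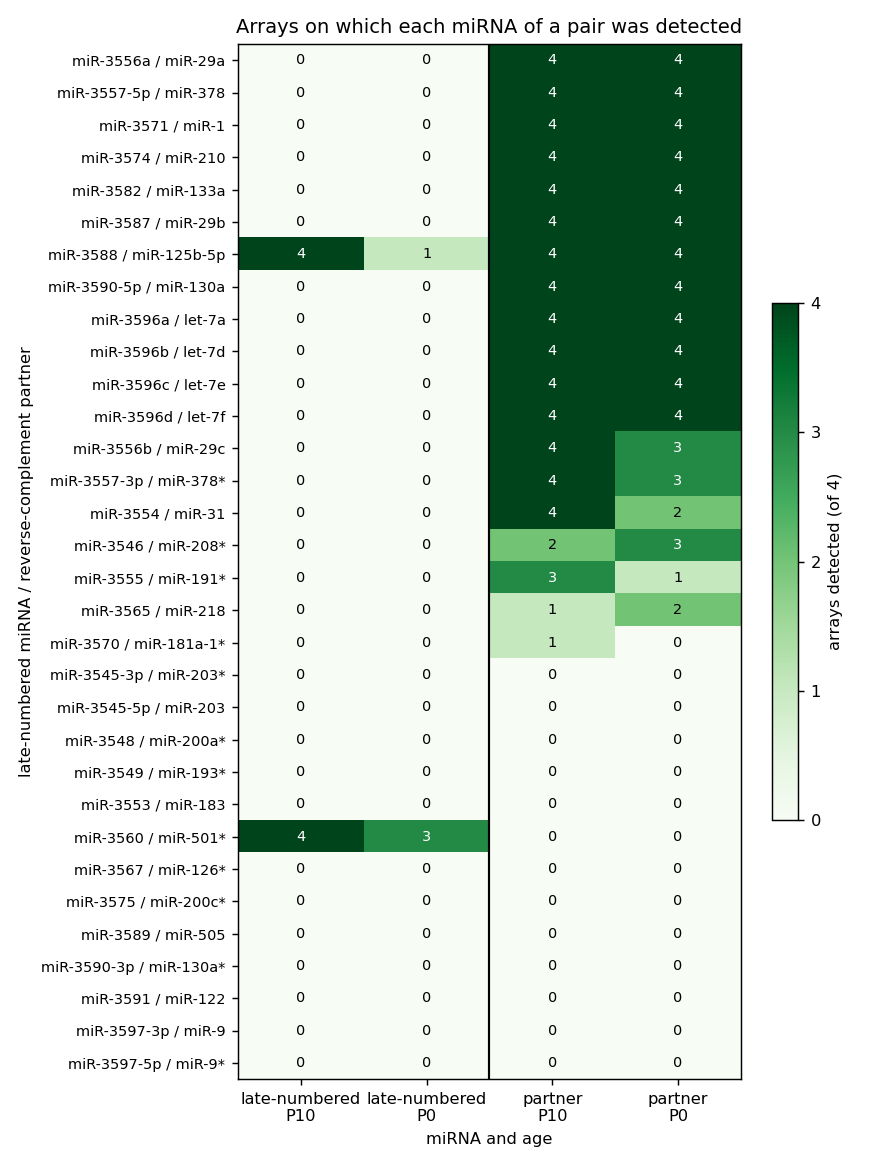
Number of arrays (of 4 per age) on which each miRNA of the 32 reverse-complement pairs was detected, with the late-numbered miRNA in the left pair of columns and its partner in the right pair, and P10 left of P0. Only miR-3588 and miR-3560 are seen among the late-numbered miRNAs, and 12 partners are seen on all 8 arrays.

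The exceptions were miR-3588 and miR-3560. miR-3588, whose whole sequence is the reverse complement of miR-125b-5p, was detected on 4 P10 arrays and 1 P0 array. Its partner, a miRNA linked to differentiation in many cell types, was detected on all 8. miR-3560, opposite miR-501-3p, was detected by at least 1 of its probes on 4 P10 arrays and 3 P0 arrays, while the probes of its partner, named miR-501* on the array, were detected on none. Because probes differ in affinity, the levels of the paired miRNAs were not set against each other. The 30 undetected miRNAs of the pairs include, beside those named above, miR-3545-3p, miR-3545-5p, miR-3553, miR-3575, miR-3589, miR-3590-3p and miR-3597-5p.

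Outside the pairs, 5 of the 31 miRNAs were detected, and 26 were not. These 26 were miR-3541, miR-3542, miR-3547, miR-3550, miR-3551-3p, miR-3551-5p, miR-3552, miR-3558-3p, miR-3558-5p, miR-3559-3p, miR-3559-5p, miR-3561-3p, miR-3561-5p, miR-3566, miR-3569, miR-3572, miR-3573-5p, miR-3580-3p, miR-3580-5p, miR-3583-3p, miR-3583-5p, miR-3584-3p, miR-3585-3p, miR-3585-5p, miR-3594-3p and miR-3594-5p. Also undetected were miR-3568, miR-3577, miR-3586-3p, miR-3586-5p and miR-3593-5p. For the hairpins miR-3573, miR-3584 and miR-3593, 1 arm was detected (3p, 5p and 3p in that order) and the other arm on no array. The 7 detected miRNAs had a median GC content of 54.5%, and the 56 undetected ones with a sequence had 45.65%. The longest stretch that a probe target of the 7 shared with any other rat mature miRNA was 7 to 9 bases. Among the 61 undetected miRNAs it was 7 to 15 bases, and the median was 8 in both sets. The longer probe of a miRNA had a median of 15 bases among the 7 and 17 among the 61. Whether probe length or GC content bears on detection was not tested.

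The signals of the detected miRNAs are given for the brighter probe, as deposited and before scaling. miR-3593-3p had 82.2, 72.7, 106.6 and 103.7 units on P10 replicates 1 to 4, against 19.3, 113, 77.2 and 97.0 units on P0 replicates 1 to 4. The ages overlapped, and the dim P0 array was far below the other 7. miR-3573-3p had 38.95, 37.6, 46.9 and 47.3 units at P10, against 18.1, 59.4, 47.0 and 56.9 units at P0. P0 replicates 2 and 4 lay above every P10 array, P0 replicate 3 lay within the P10 range and the dim array lay below it. miR-3584-5p had 20.9, 18.5, 44.6 and 43.6 units at P10, against 16.5, 44.5, 29.98 and 33.6 units at P0. Its P10 values split by array pair, replicates 3 and 4 standing above replicates 1 and 2.

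miR-3562 had 49.0, 34.3, 30.8 and 33.7 units at P10, against 8.74, 28.6, 23.4 and 23.3 units at P0. Every P10 array was above every P0 array before scaling, as was also so for miR-3588 below. This made 2 of the 6 tested miRNAs whose ages did not overlap before scaling, against 21.5% of all 158 tested. Both were tested only because they were detected on all 4 P10 arrays, and the dim P0 array is unscaled here. The count is thus no support for a rise. miR-3560 had 21.9, 15.7, 20.6 and 23.1 units at P10, against 4.05, 24.4, 14.3 and 19.7 units at P0, and the ages overlapped. miR-3564 had 8.72, 7.58, 19.8 and 17.7 units at P10, against -2.89, 4.88, 1.86 and 4.87 units at P0. Its P10 arrays also all lay above its P0 arrays before scaling, but it was not among the 6 tested. It was well above background on P10 replicates 3 and 4 only, and its level at P0 has only a bound, from which no fold above 1 followed.

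miR-3588 had 66.3, 42.9, 55.5 and 60.4 units at P10, against 17.2, -1.52, 25.3 and 14.4 units at P0. All P10 arrays were above all P0 arrays before scaling, and of the P0 arrays replicate 3 alone was well above background. Its probes disagreed, so the probe sequences are printed here, 5′ to 3′.
miR-3588 probe detected: tccctgagaccctaac
miR-3588 probe not detected: tccctgagaccctaa
The probes are 16 and 15 bases long and hold the first bases of miR-125b-5p, with T for U. The shorter one was detected on no array, with 8.50, 4.06, 4.13 and 6.64 units at P10, against -0.28, -4.48, 0.79 and -1.83 units at P0. In the authors' deposited table miR-3588 was listed above the not-detected value on 4 P10 arrays and 3 P0 arrays. For the other 6 detected miRNAs, both probes were detected on at least 1 array.

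**Figure D3:**
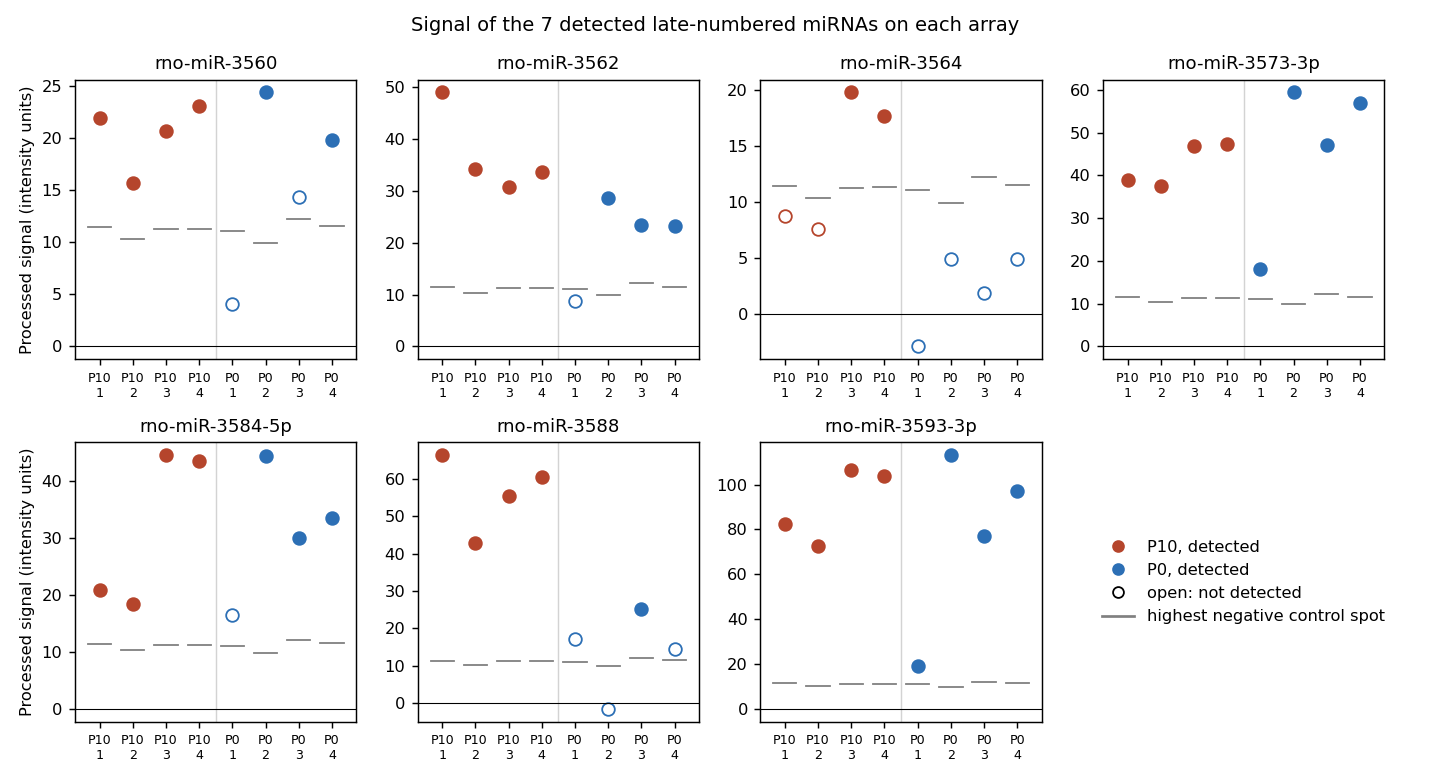
Processed signal (intensity units, before scaling) of the brighter probe of the 7 detected miRNAs on each array, P10 left of P0. Filled points are arrays where that probe was detected, open points where it was not, and grey dashes mark the brightest negative control spot of each array. miR-3588, miR-3562 and miR-3564 separate the ages here, although miR-3564 was detected on P10 replicates 3 and 4 only. P0 replicate 1 is the lowest P0 array for every miRNA but miR-3588.

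The question of the series, which miRNAs differ between the ages, was put to limma after scaling. The test took miRNAs seen on every array of 1 age or of both, which were 158 of 677, and 6 of the 68 among them. miR-3573-3p and miR-3593-3p passed at both ages, and miR-3560, miR-3562, miR-3584-5p and miR-3588 passed through P10 only. None of the 6 differed at an adjusted p under 0.05, and the lowest unadjusted p was 0.227. Over all tested miRNAs 14 of 158 (8.86%) did, 7 in each direction. After scaling the ages overlapped for all 6, whereas 25.9% of the 158 did not overlap. The median log2 difference was 0.05 over the 6 and 0.03 over all 158.

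The values after scaling are log2 of the signal over the scaling signal of its array, with a floor at -5.89. miR-3588 stood at -3.30, -3.76, -4.52 and -4.39 on P10 replicates 1 to 4, against -2.75, -5.89, -4.99 and -5.89 on P0 replicates 1 to 4. The dim array held the highest value, from a probe not well above background there, and the ages overlapped through that value alone. The other P0 values, 2 of them at the floor, lay below every P10 value. The log2 difference was 0.89 ± 0.68 (SE), with a 95% interval of -0.66 to 2.44 and an adjusted p of 0.398 from limma. The size depended on the floor, and it came to 0.36 ± 0.56 with a doubled floor and 3.68 ± 2.76 with no floor (SE, limma adjusted p = 0.681 and 0.411). Without P0 replicate 1 the difference was 1.49 ± 0.29 with an adjusted p of 0.0116 from limma, in a fit where 71 of 168 miRNAs (42.3%) passed. There 2 of the 3 remaining P0 values were floor values of a probe not well above background, and the miRNA entered the test through P10 only, so the difference and its SE rest in part on the floor and are not a measured fold. With that array left out and the P10 pairs averaged, it was 1.49 ± 0.39 with a limma adjusted p of 0.0554, and 30 of 168 (17.9%) passed. With no scaling between arrays, 6.96% of the 158 passed, miR-3588 among them (log2 difference 1.69 ± 0.38, SE, limma adjusted p = 0.0356). Its partner miR-125b-5p had scaled values of 2.79, 2.73, 0.80 and 0.88 at P10, against 0.24, 0.54, 0.43 and 0.48 at P0. All P10 values of the partner lay above all P0 values, and its difference was 1.37 ± 0.49 with a limma adjusted p of 0.115.

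The other 5 differences were smaller in this fit. By limma, miR-3562 differed by 0.39 ± 0.53 (SE; 95% interval -0.81 to 1.60, adjusted p = 0.648) and miR-3560 by 0.13 ± 0.33 (-0.63 to 0.89, adjusted p = 0.823). miR-3593-3p differed by -0.02 ± 0.30 (-0.70 to 0.66, limma adjusted p = 0.964), a P10 level of -3.29 ± 0.35 against a P0 level of -3.27 ± 0.47 (SD, n = 4 each). By limma, miR-3573-3p differed by -0.48 ± 0.43 (-1.45 to 0.49, adjusted p = 0.485) and miR-3584-5p by -0.52 ± 0.48 (-1.60 to 0.56, adjusted p = 0.489). The intervals leave room for a change of 1 on the log2 scale, in 1 direction at least, for miR-3562, miR-3573-3p, miR-3584-5p and miR-3588, so the absence of a call does not show equal levels.

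On the dim array, only miR-3573-3p and miR-3593-3p were detected. There they gave 33.2% and 20.1% of their mean signal on the other P0 arrays. Both lay above the median of 7.22% of the 50 older conserved miRNAs detected on all 8 arrays, within their range of 5.42% to 76.3%. After scaling, P0 replicate 1 was the highest P0 array for all 6 tested miRNAs, 4 of which were not detected on it. Without that array the P10 minus P0 difference was higher for all 6 than in the main fit. It came to -0.25 ± 0.15 for miR-3573-3p and -0.17 ± 0.22 for miR-3584-5p (SE, limma adjusted p = 0.198 and 0.526).

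**Figure D4:**
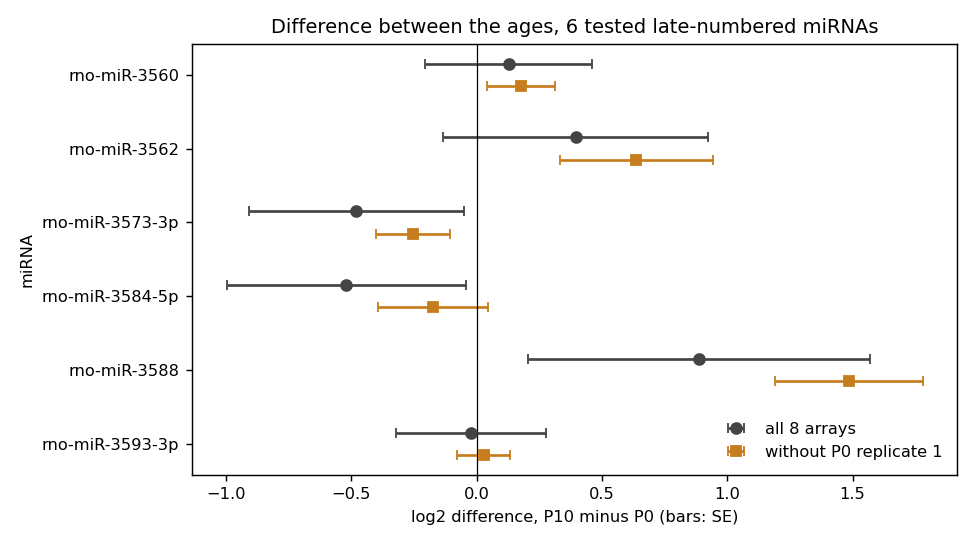
Log2 difference P10 minus P0 (points) with its SE (bars) for the 6 tested late-numbered miRNAs, from all 8 arrays (circles) and without P0 replicate 1 (squares). Only miR-3588 passes an adjusted p of 0.05, and only without that array, at 1.49, where 2 of its 3 P0 values are at the floor.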

How the data were processed

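The deposited scanner files hold spot intensities from Agilent Feature Extraction 10.7.1.1 (build rn4), per the file headers. The processed signal is background-subtracted and not scaled between arrays, so values below 0 occur. The authors' deposited table holds raw signals per miRNA and normalized log2 values, by a method not given in the sources used here. Array number limits precision, and no spot was saturated.

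Flagged spots were left out and spots averaged per probe. Signals were scaled to the 75th percentile of 111 probes detected on all arrays, floored at 0.0169 (log2 -5.89) and put on the log2 scale. Each miRNA was read from its brightest probe on average. Ages were compared with limma 3.58.1 in R 4.3.3 (lmFit, eBayes, Benjamini-Hochberg over 158 miRNAs, adjusted p under 0.05), tested on simulated data. Other scalings, backgrounds, floors, filters, signals, a replicate block and left-out arrays were tried.

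Every detected miRNA is named with its values, every tested one with its difference, and undetected ones by name, the 5 brightest with values. Older miRNAs are named as reverse complements, for a shared seed, or where a result turns on them. Members and lists were chosen with earlier results of these data known. Sequences were matched to RefSeq (GRCr8) by symbol, name and probe target.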

Additional observations from a re-analysis of the deposited data

Results flagged for a closer look

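After scaling, P0 replicate 1 stood apart from the other P0 arrays for 2 miRNAs, by Dixon's criterion for 4 values. It stood at log2 -4.83 for miR-3560, against -5.88 to -5.77 on the other P0 arrays, and at log2 -2.81 for miR-3584-5p, against -5.11 to -4.75. Chance flags about 1 in 20 such groups. This is the dim array, and neither miRNA was well above background on it.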

How the results depend on the processing

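None of the 6 tested miRNAs passed the threshold in the main analysis, and 1 did, miR-3588, with no scaling between arrays (log2 difference 1.69, adjusted p = 0.0356 by limma, 6.96% of all miRNAs passing) and without P0 replicate 1. Leaving out each array in turn gave 0 to 1 miRNAs past the threshold. The difference of miR-3588 was positive under every alternative run, from 0.24 with normexp to 3.68 with no floor, and at least 1 P0 value at the floor enters both calls. Signs turned for the others. miR-3560 came to -0.31 with normexp background correction, -0.091 with quantile scaling, -0.038 with the percentile over all probes, -0.030 with a doubled floor, -0.29 without P10 replicates 1 and 2, and ran from -0.060 to 0.28 with 1 array left out. miR-3562 came to -0.16 with normexp and -0.31 without P10 replicates 1 and 2, but to 0.93 with total signals, 1.08 without P10 replicates 3 and 4, and 0.10 to 0.65 with 1 array left out, against 0.39 in the main analysis. In the authors' deposited log2 table the differences were 2.25 for miR-3562, 1.85 for miR-3588, 1.44 for miR-3560, -0.087 for miR-3593-3p, -0.85 for miR-3573-3p and -0.88 for miR-3584-5p. Their median was 0.68 against 0.05, and none passed (limma adjusted p of 0.486 to 0.871). In its raw signals, miR-3562 and miR-3560 stood at the not-detected value of 0.1 on P0 replicate 1, and miR-3588 on P0 replicate 2. The differences of these miRNAs thus rest in part on that value and are not measured folds. The others were listed above it on every array. With no scaling, miR-3573-3p came to 0.045, miR-3584-5p to 0.0040 and miR-3593-3p to 0.50. miR-3593-3p also came to 0.39 with the percentile over all probes, 0.052 with the mean over probes, 0.27 without P10 replicates 3 and 4, 0.027 with the dim array left out and the P10 pairs averaged, and -0.13 to 0.075 with 1 array left out. The causes were not tested. No scaling moved the median of all tested miRNAs to 0.35, and the percentile over all probes moved it to 0.36, against 0.03 in the main analysis. Over all tested miRNAs, 14 passed in the main analysis, 0 with normexp, the percentile over all probes, total signals or P10 pairs averaged, 71 without P0 replicate 1 and 76 without P10 replicates 3 and 4. Tested without a filter, 0 of the 68 and 4 of 677 passed. The share detected minus that of the older conserved miRNAs was -57.8 percentage points, and minus that of all other miRNAs it was -22.1.

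The fit with P0 replicate 1 left out and P10 pairs averaged was chosen after seeing the data. After the mean of its age was subtracted from each miRNA, the deviations of same-numbered arrays correlated at 0.163, -0.154, 0.0325 and 0.136. The numbers were therefore not taken to pair the samples. With the replicate block 0 of the 6 and 4 of all 158 passed, and the median difference stayed at 0.05. Most of these signals lie close to background, so floor and background choices weigh on them.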
